A study of Mus musculus with 4 samples.

Results

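Glycolysis and the response to low oxygen were followed through 34 mouse genes, taken by gene symbol for their known roles in glucose entry, in the glycolytic steps, in the handling of pyruvate and lactate, and as regulators or targets of the hypoxia-inducible factors (HIF). All 34 were among the 38713 genes measured by RNA sequencing, and 33 of them were among the 12998 genes expressed highly enough to be tested. The remaining gene, Slc2a3, stayed under 1 FPKM in every library. FPKM is the number of mapped fragments divided by transcript length and by the fragments mapped in the library, so levels of different genes can be set side by side.

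RNA came from 4 cultured mammary tumor cell lines of parous female C57BL/6 mice, with 1 library from each line. In both genotypes Cre recombinase under the Wap promoter, which lactation switches on in the luminal epithelium of the mammary gland, deleted floxed Trp53, the gene for the tumor suppressor p53. The JNK_WT lines (labelled p53-/-, replicates 1 and 2) carried no further targeted allele. The JNK_KO lines (labelled p53-/- JNK-/-, replicates 1 and 3) had also lost floxed Mapk8 and Mapk9, which encode the stress-activated kinases JNK1 and JNK2. Tumor tissue was digested with collagenase, and the cells grew first on collagen I and later on standard culture plastic in medium with serum. A line stands for 1 tumor, so an SD given here is the spread between lines of a genotype (n = 2 each). An SE is that of the linear model fit (limma), which draws each gene's variance toward a trend over all tested genes. No culture was labelled as hypoxic, and the oxygen tension is not given in the sources used here.

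In glycolysis, hexokinases trap glucose in the cell as glucose-6-phosphate, phosphofructokinase commits it to breakdown, and the later enzymes split the sugar and harvest ATP and NADH on the way to pyruvate. Lactate dehydrogenase turns pyruvate into lactate and restores NAD+, monocarboxylate transporters move lactate across the membrane, and pyruvate dehydrogenase kinases hold pyruvate back from the mitochondria. When oxygen is plentiful, prolyl hydroxylases mark the HIF alpha subunits for destruction. When it is scarce, the subunits accumulate, pair with ARNT and bind short promoter and enhancer motifs of many glycolytic and angiogenic genes. HIF activity is set largely at the level of protein stability, which transcript levels do not report.

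The libraries were first examined for what bears on these genes. Summed FPKM was between 775960 and 921595, and the read depth inferred from steps in low values was 1.06 to 1.41 times that of JNK_KO replicate 1. Mapk8 was lower in the JNK_KO lines (23.9 and 19.1 FPKM against 4.30 and 4.27 FPKM), as was Mapk9 (29.7 and 24.3 FPKM against 12.6 and 8.66 FPKM). Trp53, targeted in both genotypes, was between 1.55 and 5.72 FPKM. All 8 epithelial markers were expressed, with a summed level of 2884 to 4023 FPKM in JNK_WT and 1414 to 2511 FPKM in JNK_KO lines. Of 8 fibroblast markers, 6 reached 1 FPKM in some library. The sum of the 8 was 1.73 to 11.8 FPKM in JNK_WT and 108 to 178 FPKM in JNK_KO lines. In JNK_KO lines it was carried mainly by Dcn and Pdgfra, and Pdgfrb and Thy1 were also higher in both. Col1a2 was highest in JNK_WT replicate 1, at 10.3 FPKM beside 0.374 to 2.56 FPKM in the other lines. Col1a1 stayed between 0.374 and 0.527 FPKM, Col3a1 overlapped between genotypes, and Lum was at or near 0 in all lines. The basal marker sum separated lines rather than genotypes, with 26.1 and 38.3 FPKM in replicate 1 of JNK_WT and JNK_KO. It was 734 FPKM in JNK_WT replicate 2 and 376 FPKM in JNK_KO replicate 3, with Krt14 at 443 and 313 FPKM. These lines were unlike in other basal markers, with Krt5 at 61.9 and 0.205 FPKM, Krt17 at 202 and 26.7 FPKM and Acta2 at 3.19 and 29.0 FPKM. None of the 6 endothelial or 6 erythroid markers reached 1 FPKM. Of the 7 leukocyte markers in the table, Cd68 and Csf1r did, and Ptprc stayed at or near 0. Because the measurement is of bulk RNA, fewer cells of a kind and less RNA per cell cannot be told apart, and the part of these marker differences in the results that follow was not tested.

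To ask whether loss of JNK went with a different glycolytic or hypoxic program, each gene was compared between genotypes on log2(FPKM + 1), as JNK_KO minus JNK_WT. The members did not move together. The 5 genes that were more than 0.75 higher in JNK_KO lines were Epas1, Pfkfb3, Egln3, Pfkp and Ndrg1, and the 3 genes that were more than 0.75 lower were Gapdh, Tpi1 and Pfkl. No member was called (limma adjusted p-value under 0.05 with an absolute log2 difference over 0.75), which was also true of all genes tested (0%), and the smallest limma adjusted p-value of a member was 0.378, for Tpi1. At an unadjusted limma p-value under 0.05 there were 5 members of 33, beside 7.63% of all tested genes. Of these 5, Pfkfb3 and Ndrg1 were higher in JNK_KO lines (background 4.75%) and Gapdh, Tpi1 and Pfkl were lower (background 2.89%).

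An absolute difference over 0.75 was seen in 8 of the 33 members, beside 15.7% of all tested genes, with 5 higher (background 9.25%) and 3 lower (background 6.43%). The JNK_WT and JNK_KO values did not overlap for 9 members (27.3%), beside 35% of all tested genes. These were Pfkm, Pfkfb3, Pdk3 and Ndrg1, higher in JNK_KO lines (background 18.3%), and Hk2, Gpi1, Pfkl, Tpi1 and Gapdh, lower in JNK_KO lines (background 16.7%). The median log2 difference of the 33 members was 0.09, with 21 positive and 12 negative, and that of all tested genes was 0.01. Which side of 0 it fell on depended on the lines, since it was -0.02 without JNK_WT replicate 1, -0.05 without JNK_KO replicate 1, 0.24 without JNK_WT replicate 2 and 0.17 without JNK_KO replicate 3.

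**Figure D1:**
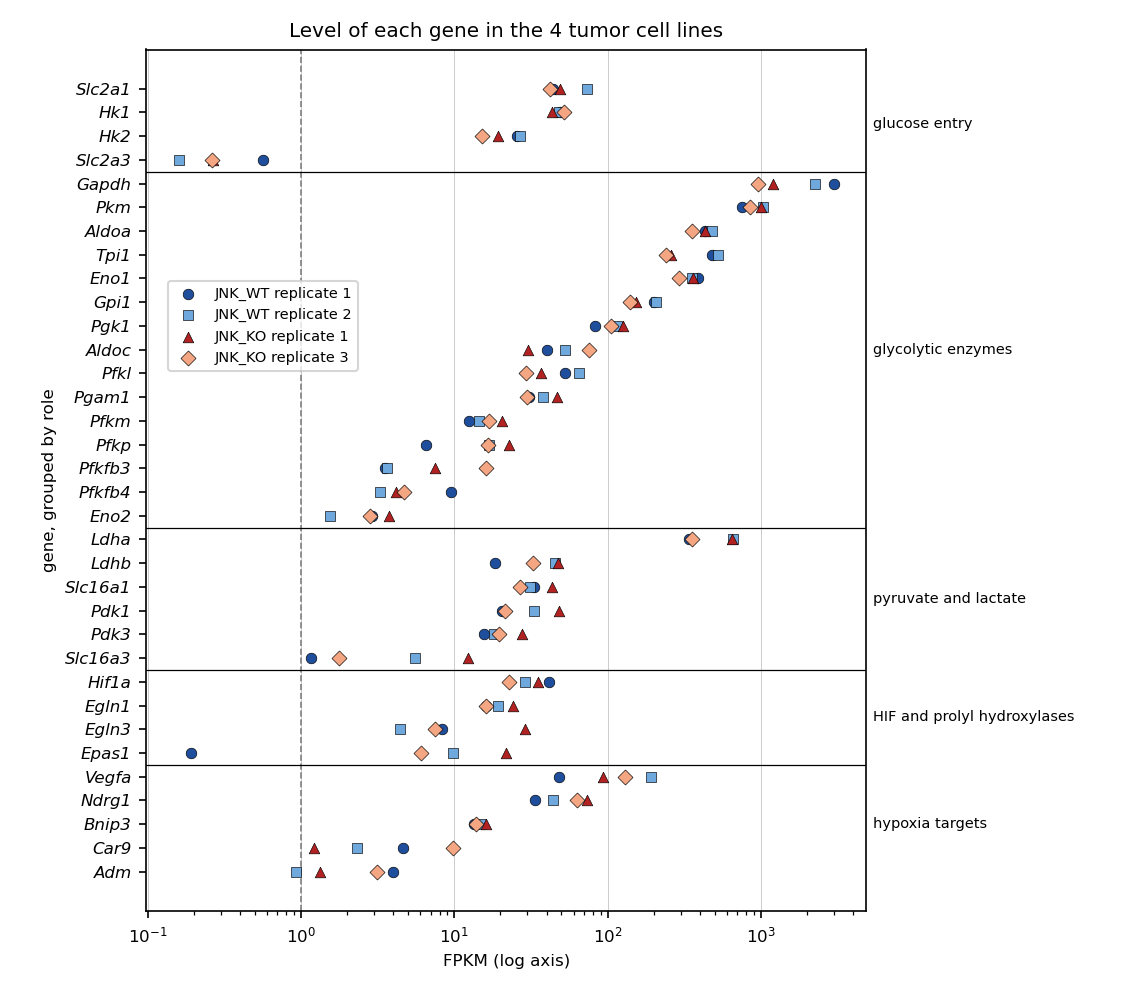
FPKM (log axis) of the 34 genes in each of the 4 lines, grouped by role and ordered within a role by mean level, with a dashed line at 1 FPKM; each point is 1 library. Gapdh lies between 956 and 2984 FPKM with the JNK_WT points to the right of the JNK_KO points, and Epas1 shows the widest range, from 0.192 FPKM in JNK_WT replicate 1 to 21.8 FPKM in JNK_KO replicate 1.

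**Figure D2:**
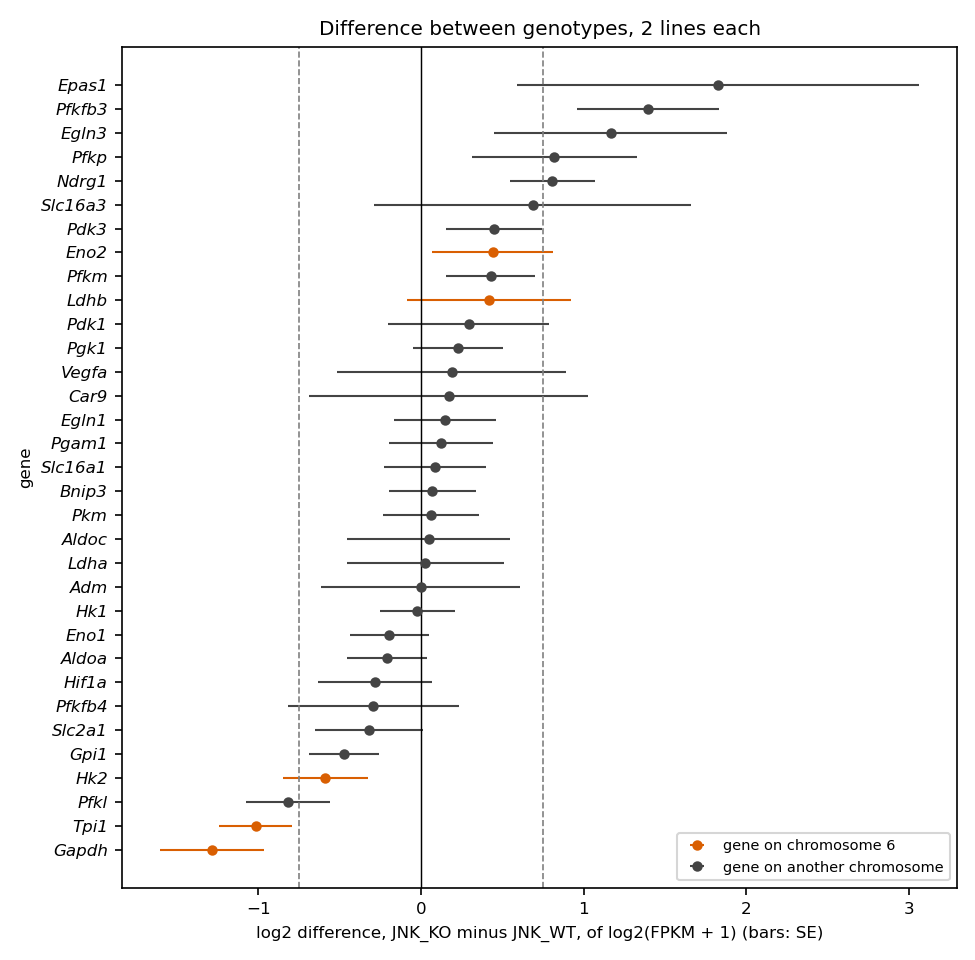
Log2 difference (JNK_KO minus JNK_WT, on log2(FPKM + 1)) of the 33 tested members, with bars for the limma standard error, dashed lines at an absolute difference of 0.75 and the chromosome 6 genes in orange. The values run from -1.28 for Gapdh to 1.83 for Epas1, and the bars are longest for Epas1 and Slc16a3.

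Promoter windows of 8 members are printed here to set the DNA beside the levels: the 3 phosphofructokinase genes, whose log2 differences had unlike signs, 3 of the genes on chromosome 6, and Ldha and Pdk1, whose levels followed the line rather than the genotype. Each is RefSeq sequence (GRCm38.p6) of 140 bases, written 5′ to 3′ on the gene's strand. It runs from 150 to 11 bases before the most upstream start that RefSeq gives for the gene. Which start was in use in these lines was not examined. The GENCODE positions given below for Ldha, Gapdh and Pfkl begin further upstream, so these 3 windows lie inside the GENCODE genes, outside their annotated exons. Capitals mark the letters ACGTG or GCGTG, the core of the HIF binding motif, or their reverse complements CACGT and CACGC. Where CACGTG is in capitals, ACGTG was found on each strand, and the matches overlap.
Pfkl, chr10:78009818-78009957, reverse strand: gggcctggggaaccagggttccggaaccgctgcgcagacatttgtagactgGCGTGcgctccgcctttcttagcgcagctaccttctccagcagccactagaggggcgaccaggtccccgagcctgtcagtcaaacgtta
Pfkm, chr15:98092439-98092578, forward strand: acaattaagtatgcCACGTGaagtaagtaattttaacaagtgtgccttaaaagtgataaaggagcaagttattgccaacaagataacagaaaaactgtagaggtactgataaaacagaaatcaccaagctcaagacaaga
Pfkp, chr13:6648782-6648921, reverse strand: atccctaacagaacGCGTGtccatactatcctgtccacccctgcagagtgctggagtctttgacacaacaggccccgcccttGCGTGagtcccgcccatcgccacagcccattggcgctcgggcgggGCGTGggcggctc
Hk2, chr6:82774465-82774604, reverse strand: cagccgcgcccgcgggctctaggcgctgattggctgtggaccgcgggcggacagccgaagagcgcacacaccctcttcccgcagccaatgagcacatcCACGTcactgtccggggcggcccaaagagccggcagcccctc
Gapdh, chr6:125165784-125165923, reverse strand: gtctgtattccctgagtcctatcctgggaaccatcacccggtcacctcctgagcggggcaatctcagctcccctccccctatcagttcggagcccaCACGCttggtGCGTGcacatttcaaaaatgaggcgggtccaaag
Eno2, chr6:124769684-124769823, reverse strand: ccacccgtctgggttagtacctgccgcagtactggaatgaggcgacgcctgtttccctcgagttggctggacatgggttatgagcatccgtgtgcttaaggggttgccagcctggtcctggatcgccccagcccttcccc
Ldha, chr7:46845654-46845793, forward strand: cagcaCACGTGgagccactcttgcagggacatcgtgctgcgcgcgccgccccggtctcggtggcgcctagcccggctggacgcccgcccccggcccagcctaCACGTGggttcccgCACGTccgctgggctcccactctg
Pdk1, chr2:71873074-71873213, forward strand: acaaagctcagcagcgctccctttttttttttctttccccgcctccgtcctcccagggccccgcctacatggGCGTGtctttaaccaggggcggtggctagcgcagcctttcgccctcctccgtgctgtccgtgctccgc

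Among the printed windows, that of Ldha held 5 matches to ACGTG and that of Pfkm held 2, which share a CACGTG. The window of Pfkp held 3 matches to GCGTG, that of Gapdh 2, and those of Pfkl and Pdk1 held 1 each, while Hk2 had 1 match to ACGTG and Eno2 had none of either. Over the 250 bases before the most upstream start, searched on both strands, ACGTG was in 15 of the 31 members with a RefSeq promoter (48.4%). It was in 22.0% of 8946 tested genes and in 16.7% of all 26794 genes with a RefSeq promoter, measured here or not. For GCGTG the shares were 48.4%, 47.1% and 28.5%. The median GC content was 59.2% in the members, 60.0% in tested genes and 52.4% in all genes with a RefSeq promoter. A match describes the letters of a window, not binding. Slc2a3, Epas1 and Ndrg1 were not matched.

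Glucose entry was carried by Slc2a1, Hk1 and Hk2 in all lines, and Hk2 was lower in both JNK_KO lines. Slc2a1, which encodes the widely used glucose transporter GLUT1 (chromosome 4, 119108711 to 119137983, forward strand; GENCODE positions on GRCm38 throughout), measured 44.0 FPKM in JNK_WT replicate 1 and 73.3 FPKM in replicate 2, beside 48.9 FPKM in JNK_KO replicate 1 and 42.0 FPKM in replicate 3. Values below keep this order of lines. JNK_WT replicate 2 stood above the other 3 lines and the genotypes overlapped, with a log2 difference of -0.32 (SE 0.33, limma adjusted p-value 0.978). Slc2a3, which encodes the neuronal-type transporter GLUT3, was at 0.560, 0.159, 0.267 and 0.263 FPKM and was not tested.

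Hexokinase 2, the isoform typical of tumor cells and of insulin-responsive tissue, is encoded by Hk2 on chromosome 6 (82725025 to 82774454, reverse strand). It was at 25.6 and 26.8 FPKM in JNK_WT lines and at 19.3 and 15.1 FPKM in JNK_KO lines. Both JNK_KO lines were below both JNK_WT lines, with means of 26.2 ± 0.802 and 17.2 ± 2.94 FPKM (SD, n = 2 each). The difference on the log2 scale was -0.59 (SE 0.26, limma adjusted p-value 0.738). Hk1, the broadly expressed hexokinase, hardly varied, with a range of 43.7 to 52.1 FPKM over the 4 lines. The hexokinase sum was 74.8 and 74.6 FPKM in JNK_WT lines and 63.0 and 67.2 FPKM in JNK_KO lines, and Hk2 made up 34.2% and 35.9% of it in JNK_WT lines and 30.6% and 22.5% in JNK_KO lines.

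At the phosphofructokinase step the liver-type gene was lower and the muscle-type gene higher in both JNK_KO lines, while the platelet-type gene overlapped between genotypes. Pfkl, the liver-type gene (chromosome 10, 77986947 to 78010083, reverse strand), was at 52.9 and 65.3 FPKM in JNK_WT lines and at 36.9 and 29.4 FPKM in JNK_KO lines. Its genotypes did not overlap, and the log2 difference was -0.82 (SE 0.26, limma adjusted p-value 0.549). Pfkm, the muscle-type gene (chromosome 15, 98092589 to 98132451, forward strand), was at 12.5 and 14.6 FPKM in JNK_WT lines and at 20.4 and 16.8 FPKM in JNK_KO lines, without overlap, a log2 difference of 0.43 (SE 0.27, limma adjusted p-value 0.882). Pfkp, the platelet-type gene (chromosome 13, 6579768 to 6648777, reverse strand), was at 6.49 and 16.8 FPKM in JNK_WT lines and at 22.6 and 16.6 FPKM in JNK_KO lines. JNK_WT replicate 1 was far below the other 3 lines, which lay close together, so the log2 difference of 0.82 (SE 0.51, limma adjusted p-value 0.873) was 0.19 without that line.

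Within each line, Pfkl accounted for 73.6% and 67.5% of the summed phosphofructokinase FPKM in JNK_WT replicates 1 and 2 and for 46.2% and 46.8% in JNK_KO replicates 1 and 3. The share of Pfkm was 17.3% and 15.1% against 25.5% and 26.8%, and that of Pfkp was 9.03% and 17.4% against 28.3% and 26.4%. All 3 shares were without overlap between genotypes, as were those of the hexokinases, enolases and lactate dehydrogenases. Shares of the other families overlapped. The 3 shares add up to a whole in each line, so they are not separate results. The phosphofructokinase sum itself overlapped, at 71.8 and 96.6 FPKM in JNK_WT and 79.9 and 62.7 FPKM in JNK_KO lines. The Pfkl share was 70.6 ± 4.31% in JNK_WT and 46.5 ± 0.449% in JNK_KO lines (SD, n = 2 each), 24.1 percentage points apart. A share is not changed by a scaling factor common to all genes of a library, and under quantile normalization the difference was -23.6 percentage points, as JNK_KO minus JNK_WT. These shares were singled out from 9 families with their values known and are a description, with no test. In the promoter windows printed above, ACGTG lay in that of Pfkm, and GCGTG lay in those of Pfkl and Pfkp.

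**Figure D3:**
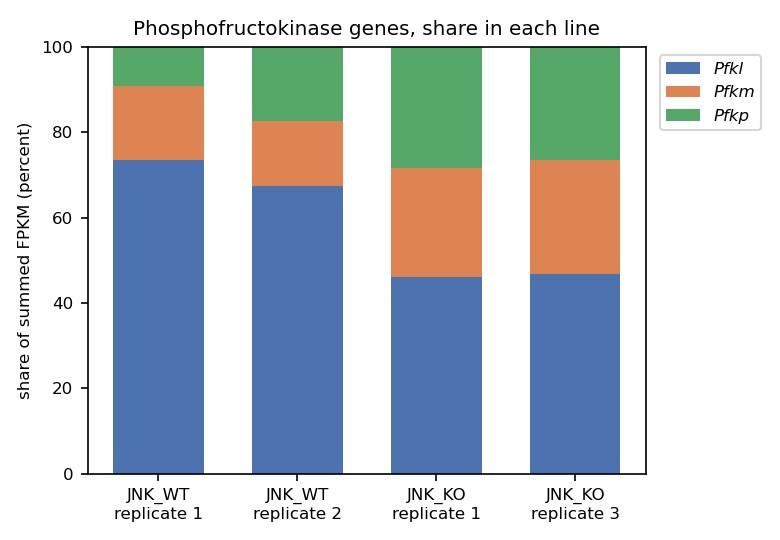
Share of the summed FPKM of the phosphofructokinase genes (percent) held by Pfkl, Pfkm and Pfkp in each of the 4 lines; each bar is 1 library. Pfkl takes 73.6% and 67.5% in the JNK_WT lines and 46.2% and 46.8% in the JNK_KO lines.

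The bifunctional enzymes encoded by Pfkfb3 and Pfkfb4 set the level of fructose-2,6-bisphosphate, the activator of phosphofructokinase. Pfkfb3, whose product mainly makes the activator (chromosome 2, 11471433 to 11554077, reverse strand), was at 3.54 and 3.62 FPKM in JNK_WT lines and at 7.52 and 16.1 FPKM in JNK_KO lines. The JNK_WT lines were nearly alike, the JNK_KO lines were higher and more than 1 apart on the log2 scale, and the mean ratio was 3.29, with a log2 difference of 1.40 (SE 0.44, limma adjusted p-value 0.539) that was 0.90 without JNK_KO replicate 3 and 1.90 without JNK_KO replicate 1. Pfkfb4 (chromosome 9, 108991778 to 109032228, forward strand) was at 9.49 and 3.25 FPKM in JNK_WT lines and at 4.19 and 4.72 FPKM in JNK_KO lines. Here JNK_WT replicate 1 alone was high, and the genotypes overlapped (log2 difference -0.29, SE 0.52, and 0.36 without that line).

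In the remainder of the pathway Gapdh and Tpi1, which encode neighbouring steps, were lower in both JNK_KO lines, Gpi1 was lower by less, and the genes from Pgk1 to Pkm overlapped between genotypes. Gapdh, whose product oxidizes glyceraldehyde-3-phosphate and makes NADH (chromosome 6, 125161715 to 125166467, reverse strand), was at 2984 and 2270.2 FPKM in JNK_WT lines and at 1195 and 956 FPKM in JNK_KO lines. It ranked 31 of 38713 genes by mean level, and its JNK_WT mean of 2627 ± 504 FPKM was 2.44 times its JNK_KO mean of 1076 ± 169 FPKM (SD, n = 2 each). On the log2 scale the difference was -1.28 (SE 0.32), the limma p-value 0.0127 and the limma adjusted p-value 0.440. Because Gapdh is in wide use as a reference transcript, its level in these lines bears on any value scaled to it.

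Tpi1, whose product interconverts the triose phosphates (chromosome 6, 124810586 to 124814296, reverse strand), was at 484 and 528 FPKM in JNK_WT lines and at 259 and 241 FPKM in JNK_KO lines. Lines of a genotype were close together and the genotypes far apart, with means of 506 ± 31.3 and 249.6 ± 12.6 FPKM (SD, n = 2 each). On the log2 scale the difference was -1.02 (SE 0.22), with a limma p-value of 0.00814 that became 0.378 after adjustment. Gpi1, for the isomerase that follows hexokinase, was at 199.5 and 208.5 FPKM in JNK_WT lines and 153.6 and 139.6 FPKM in JNK_KO lines, also without overlap, a log2 difference of -0.48 (SE 0.21, limma adjusted p-value 0.746).

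The abundant enzymes Aldoa, Pgk1, Pgam1, Eno1 and Pkm differed by between -0.21 and 0.23 on the log2 scale, each with overlapping genotypes. Pkm, the pyruvate kinase of proliferating cells and muscle and the second most abundant member by mean, was at 753 and 1037 FPKM in JNK_WT lines and at 997 and 854 FPKM in JNK_KO lines. Aldoc, the aldolase best known from brain (chromosome 11, 78322968 to 78327781, forward strand), was at 40.4 and 53.1 FPKM in JNK_WT lines and 30.2 and 75.6 FPKM in JNK_KO lines. The JNK_KO lines were the lowest and the highest of the 4, and the log2 difference was 0.05 (SE 0.50). Eno2, the neuronal enolase, was low throughout, at 2.89 and 1.55 FPKM in JNK_WT lines and at 3.77 and 2.83 FPKM in JNK_KO lines, and made up at most 1.03% of enolase FPKM. Eno1 supplied the rest.

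Summed over the 25 glycolytic, transport and pyruvate members, FPKM was 6027 and 6131 in JNK_WT lines and 4636 and 3704 in JNK_KO lines, which was 0.777% and 0.728% of all FPKM against 0.503% and 0.460%. The genotypes were apart in this sum. Gapdh alone held 49.5% and 37.0% of it in JNK_WT lines and 25.8% in each JNK_KO line. Without Gapdh and Tpi1 the sums overlapped, at 2560.0 and 3333 FPKM in JNK_WT and 3182 and 2507 FPKM in JNK_KO lines. Both had the lowest log2 differences of the members (-1.28 and -1.02), so leaving them out favored overlap from the start. Sums without Gapdh alone were not computed. The median log2 difference of the 24 tested genes among the 25 was 0.05, with 14 positive and 10 negative. It was -0.12 without JNK_WT replicate 1, -0.23 without JNK_KO replicate 1, 0.19 without JNK_WT replicate 2 and 0.27 without JNK_KO replicate 3.

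Hk2, Tpi1, Gapdh, Eno2, Ldhb and Slc2a3 lie on chromosome 6. Eno2, Tpi1 and Gapdh are close neighbours there, with 40.9 kb between Eno2 and Tpi1 and 347.4 kb between Tpi1 and Gapdh. The 628 tested genes of this chromosome had a median log2 difference of -0.59, and 76.1% of them were negative, beside a median of 0.01 and 48.6% over all tested genes. The median of the 5 tested members on chromosome 6 was also -0.59, and that of the 28 members elsewhere was 0.11.

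Set among the genes of its own chromosome, Hk2 was near the middle, with 50.3% of tested chromosome 6 genes at or below its value. For Tpi1 this share was 17.7% and for Gapdh 8.28%, so both were toward the low end of the chromosome. Eno2 (0.44) and Ldhb (0.42) were on the opposite side, and 69 and 75 of the 628 genes were at or above their values. The tested genes within 2 Mb of Gapdh had a median of -0.80 (45 genes), those within 2 Mb of Tpi1 and Eno2 a median of -0.76 (42 genes), and those within 2 Mb of Hk2 a median of -0.79 (35 genes, of which 97.1% were negative). Around Ldhb the median of 11 genes was -0.52. This window was chosen after the data were seen. Hif1a and Egln3 lie on chromosome 12 (median -0.41) and Aldoc and Slc16a3 on chromosome 11 (median -0.20), and the medians of the other chromosomes were between -0.10 and 0.18. The part of chromosome position in the values of Gapdh, Tpi1 and Hk2 was not tested, and DNA copy number was not analysed here. The study reports, from exome sequencing, that the chromosome carrying these genes was amplified in JNK_WT tumor cells and in some JNK_KO tumor cells. Whether the JNK_KO lines measured here carried that gain was not examined, and its part in the lower values was not tested.

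**Figure D4:**
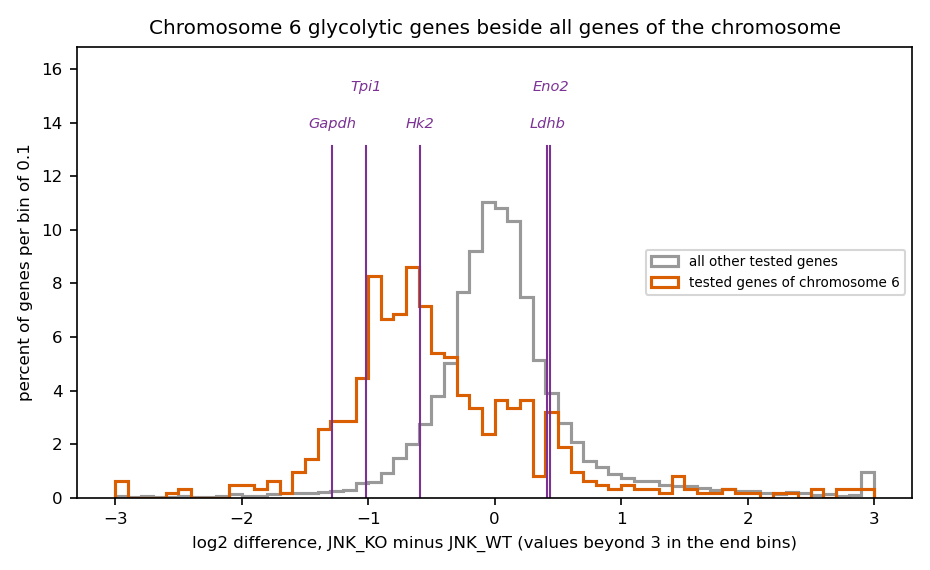
Percent of tested genes in each bin of 0.1 of the log2 difference (JNK_KO minus JNK_WT), for the 628 genes of chromosome 6 (orange) and all other tested genes (grey), with vertical lines at the 5 tested members on chromosome 6. Gapdh, Tpi1 and Hk2 fall within the lower hump of the orange outline, and Eno2 and Ldhb fall above 0.

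Genes for lactate and pyruvate handling followed the line more than the genotype. In 5 of the 6 the highest value was in JNK_KO replicate 1, and in 5 of the 6 the lowest was in JNK_WT replicate 1. Over all 12998 tested genes, JNK_KO replicate 1 was highest for 3224 and JNK_WT replicate 1 lowest for 3779. All 6 log2 differences of the lactate and pyruvate genes were positive, from 0.03 to 0.69, but only Pdk3 had genotypes without overlap. Ldha, whose product makes lactate (chromosome 7, 46841475 to 46855627, forward strand), was at 338 and 659 FPKM in JNK_WT lines and at 648 and 357 FPKM in JNK_KO lines. JNK_WT replicate 2 and JNK_KO replicate 1 were high and the other lines low, so each genotype held a line of either kind, and the log2 difference was 0.03 (SE 0.49, limma adjusted p-value 0.999). Ldhb, whose product favors the reverse reaction (chromosome 6, 142490249 to 142507957, reverse strand), was at 18.5 and 45.2 FPKM in JNK_WT lines and at 47.2 and 32.4 FPKM in JNK_KO lines. JNK_WT replicate 1 was the lowest, and the log2 difference of 0.42 had an SE of 0.50. Ldha held between 91.7% and 94.8% of lactate dehydrogenase FPKM in every line.

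The lactate transporter genes differed in how far they varied. Slc16a1, for the widely expressed carrier MCT1, stayed between 27.0 and 43.2 FPKM. Slc16a3, for MCT4, the exporter typical of glycolytic cells (chromosome 11, 120948480 to 120960868, forward strand), was at 1.16 and 5.55 FPKM in JNK_WT lines and at 12.4 and 1.75 FPKM in JNK_KO lines, a range of 10.6 times. Each genotype had a low and a higher line, so the log2 difference of 0.69 had an SE of 0.97 and was -0.45 without JNK_KO replicate 1. Slc16a3 made up 3.39% and 15.2% of the summed FPKM of the 2 carriers in JNK_WT lines and 22.3% and 6.11% in JNK_KO lines.

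Pdk1, whose product phosphorylates and inhibits pyruvate dehydrogenase (chromosome 2, 71873224 to 71903858, forward strand), was at 20.4 and 33.1 FPKM in JNK_WT lines and at 48.2 and 21.3 FPKM in JNK_KO lines. Its low and high lines were those of Ldha and Slc16a3, with JNK_WT replicate 1 and JNK_KO replicate 3 low and the other lines high, and the log2 difference was 0.29 (SE 0.50). Pdk3, a related kinase on the X chromosome (93764607 to 93832201, reverse strand), was at 15.6 and 18.2 FPKM in JNK_WT lines and at 27.8 and 19.6 FPKM in JNK_KO lines, without overlap, a log2 difference of 0.45 (SE 0.30, limma adjusted p-value 0.893) that was 0.21 without JNK_KO replicate 1 and 0.69 without JNK_KO replicate 3.

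Among HIF regulators, Epas1 and Egln3 varied widely between lines and Hif1a and Egln1 did not. Hif1a, for the HIF-1 alpha subunit (chromosome 12, 73901375 to 73947530, forward strand), was at 41.7 and 28.9 FPKM in JNK_WT lines and at 35.3 and 22.8 FPKM in JNK_KO lines, with overlap and a log2 difference of -0.28 (SE 0.35). Epas1, for the HIF-2 alpha subunit (chromosome 17, 86753700 to 86833410, forward strand), was at 0.192 and 9.78 FPKM in JNK_WT lines and at 21.8 and 6.10 FPKM in JNK_KO lines. JNK_WT replicate 1 was close to 0, the other JNK_WT line lay between the JNK_KO lines, and so the log2 difference of 1.83, the largest of the 33 members, had an SE of 1.23 and a limma adjusted p-value of 0.900. Without JNK_WT replicate 1 it was 0.24, and without JNK_WT replicate 2 it was 3.42. Epas1 made up 0.457% of the FPKM of both alpha subunit genes in JNK_WT replicate 1 and 25.3%, 38.2% and 21.1% in JNK_WT replicate 2 and JNK_KO replicates 1 and 3.

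Egln3, for the prolyl hydroxylase PHD3, itself known to be induced by HIF (chromosome 12, 54178981 to 54203860, reverse strand), was at 8.36 and 4.40 FPKM in JNK_WT lines and at 29.0 and 7.48 FPKM in JNK_KO lines. JNK_KO replicate 1 alone was high, and the log2 difference of 1.17 (SE 0.72, limma adjusted p-value 0.870) was 0.25 without it. Egln1, for PHD2, the main oxygen sensor of this family, ranged from 16.1 FPKM in JNK_KO replicate 3 to 24.0 FPKM in JNK_KO replicate 1.

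Of the hypoxia targets, Ndrg1 was higher in both JNK_KO lines and the others followed no genotype. Ndrg1, a stress-responsive gene named for its regulation by N-myc (chromosome 15, 66929318 to 66969640, reverse strand), was at 33.6 and 44.3 FPKM in JNK_WT lines and at 73.8 and 63.1 FPKM in JNK_KO lines. The genotypes did not overlap, the means were 38.9 ± 7.59 and 68.5 ± 7.57 FPKM (SD, n = 2 each), and the log2 difference was 0.81 (SE 0.26, limma adjusted p-value 0.556). Vegfa, for the main angiogenic growth factor (chromosome 17, 46016993 to 46032369, reverse strand), was at 48.3 and 190.8 FPKM in JNK_WT lines and at 93.3 and 129 FPKM in JNK_KO lines. The JNK_WT lines were the lowest and the highest of the 4, almost 2 apart on the log2 scale (1.96), and the log2 difference between genotypes was 0.19 (SE 0.70).

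Car9, for the membrane carbonic anhydrase often used as a hypoxia marker (chromosome 4, 43506966 to 43513729, forward strand), was at 4.65 and 2.32 FPKM in JNK_WT lines and at 1.20 and 9.76 FPKM in JNK_KO lines. Adm, for the vasodilator peptide adrenomedullin (chromosome 7, 110627661 to 110629820, forward strand), was at 3.99 and 0.921 FPKM in JNK_WT lines and at 1.33 and 3.10 FPKM in JNK_KO lines. In both genes JNK_WT replicate 1 and JNK_KO replicate 3 were the higher lines, which is the reverse of the order seen in Ldha, Pdk1 and Slc16a3. Bnip3, for a mitophagy receptor, was nearly level, between 13.5 and 16.1 FPKM. The median log2 difference of the 9 HIF regulators and targets was 0.17, with 7 positive and 2 negative, and it stayed between 0.17 and 0.41 when any line was left out.

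Lines of the same genotype differed from each other in many of the 33 tested members. The median absolute log2 difference was 0.39 within JNK_WT, 0.42 within JNK_KO and 0.51 between genotypes, beside 0.43, 0.33 and 0.38 over all tested genes. A total of 12 members were more than 1 apart within a genotype, beside 24% of all tested genes. These were Pfkp, Pfkfb4, Ldhb, Slc16a3, Epas1, Vegfa and Adm within JNK_WT and Pfkfb3, Aldoc, Slc16a3, Pdk1, Epas1, Egln3 and Car9 within JNK_KO lines. JNK_KO replicate 1 was the highest line for 15 of the 33 members and JNK_WT replicate 1 the lowest for 14, while JNK_KO replicate 3 was the lowest for 12. Over all 12998 tested genes these counts were 3224, 3779 and 2495.

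**Figure D5:**
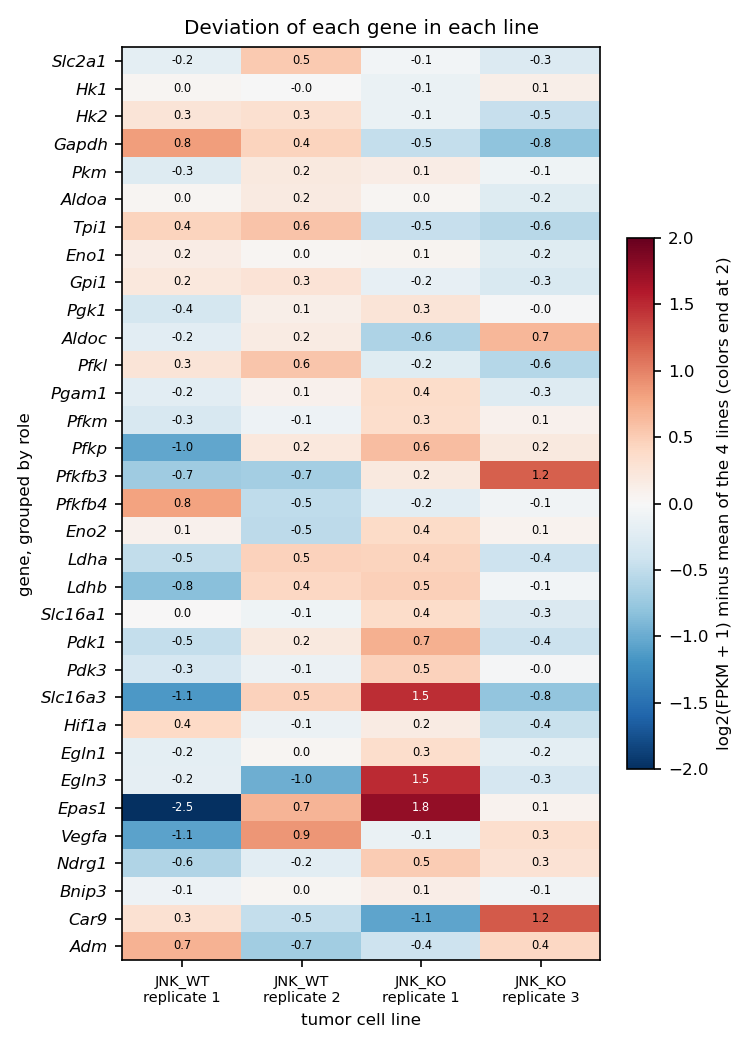
Deviation of each tested member in each line from the mean of the 4 lines, on log2(FPKM + 1), with red above and blue below the mean and the value printed in each cell. Gapdh and Tpi1 are red in both JNK_WT lines and blue in both JNK_KO lines, and Slc16a3, Pdk1 and Ldha are blue in JNK_WT replicate 1 and JNK_KO replicate 3.

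Other genes of these pathways were taken from lists of their known members. Up to 3 genes of each list are named, those with the largest differences. Over all tested genes, 7.63% had an unadjusted limma p-value under 0.05 (4.75% higher, 2.89% lower) and 35% had genotypes without overlap. Without overlap were 36.0% of the further glucose and pyruvate genes, 15.4% of HIF regulators, 31.0% of HIF targets and 42.9% of pentose phosphate genes. Of 43 further genes of glucose and pyruvate metabolism, 25 were tested, none was called by limma, 2 had an unadjusted limma p-value under 0.05, both higher in JNK_KO lines, and the median log2 difference was 0.18. Pdk4, a pyruvate dehydrogenase kinase on chromosome 6 (5483351 to 5496309, reverse strand), was at 6.41 and 1.53 FPKM in JNK_WT lines and at 11.9 and 61.2 FPKM in JNK_KO lines, without overlap, a log2 difference of 2.71 (SE 0.96, limma adjusted p-value 0.625). Only 6 of the 628 genes of its chromosome were at or above that value. Slc2a6, for the transporter GLUT6, was at 0.270 and 0.140 FPKM in JNK_WT lines and at 1.81 and 1.58 FPKM in JNK_KO lines, a log2 difference of 1.16 (SE 0.30, limma adjusted p-value 0.449). Pdp1, for a phosphatase that opposes the pyruvate dehydrogenase kinases, was also higher without overlap (0.66, SE 0.39).

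Of 15 further HIF regulators, 13 were tested, 0 were called by limma, 0 had an unadjusted limma p-value under 0.05 and the median was 0.07. Arnt, for the partner of the HIF alpha subunits (chromosome 3, 95434388 to 95497240, forward strand), was at 18.9 and 14.6 FPKM in JNK_WT lines and at 25.2 and 25.7 FPKM in JNK_KO lines, without overlap, a log2 difference of 0.58 (SE 0.27, limma adjusted p-value 0.752). Vhl, for the ligase subunit that recognizes hydroxylated HIF (0.38, SE 0.80), and Cited4 (-1.21, SE 1.65) had overlapping genotypes. Vhl was low in JNK_WT replicate 1, at 4.42 FPKM beside 13.3 to 25.0 FPKM in the other lines.

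Of 47 further HIF targets, 42 were tested, 0 were called by limma, 1 was higher and 3 were lower at an unadjusted limma p-value under 0.05, and the median was -0.02. Pgf, for placental growth factor, a relative of Vegfa (chromosome 12, 85166635 to 85177790, reverse strand), was at 22.6 and 6.46 FPKM in JNK_WT lines and at 2.06 and 1.99 FPKM in JNK_KO lines. The JNK_KO lines were alike and below both JNK_WT lines, with a log2 difference of -2.13 (SE 0.63, limma adjusted p-value 0.506). The transcription factor gene Twist1 (-1.16, SE 0.57) and the growth factor gene Tgfa on chromosome 6 (-1.06, SE 0.27) were also lower without overlap. Of the 7 pentose phosphate genes, all tested and 0 called by limma, the median was -0.07 and 1 had an unadjusted limma p-value under 0.05. This was Rpia, for ribose-5-phosphate isomerase on chromosome 6, at 95.9 and 58.5 FPKM in JNK_WT lines and 30.3 and 43.0 FPKM in JNK_KO lines (log2 difference -1.03, SE 0.36).

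Several members share sequence with processed pseudogenes or overlapping genes, to which short reads may be assigned. Of the 40-base windows of the annotated transcripts, 54.3% in Pgk1, 52.3% in Bnip3, 36.7% in Pgam1, 30.0% in Pkm, 27.4% in Eno1, 27.0% in Ldhb and 26.7% in Gapdh also occurred in another annotated gene. For Gapdh these included 268 pseudogenes. In Gpi1 18.5% of windows were shared, and in Ldha 14.1%. The share was 6.70% for Tpi1, 0.179% for Pfkl and 0.494% for Pfkfb3, and no window was shared for Hk2, Egln3, Pdk3 or Slc16a3. Levels of the genes with many shared windows are therefore less certain than those of the others.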

How the data were processed

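RNA from the 4 cell lines had been sequenced by the authors as single-end 40-base reads from TruSeq libraries, trimmed, sampled to similar read numbers, aligned to GRCm38 (mm10) with TopHat2 2.0.14 and Bowtie2, and quantified with Cufflinks 2.2.1. The gene annotation is not given in the sources used here, and the libraries were not stated to keep strand. The deposited values were FPKM per gene and library, set by the authors without pooling of replicates. FPKM carry no read counts, so no count model and no counting interval was computed.

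From the table, 27 rows with symbols turned into dates and 1 gene without a value were left out, which left 38713 genes. Genes with at least 1 FPKM in at least 2 libraries (12998) were tested on log2(FPKM + 1) with limma 3.58.1 under R 4.3.3 (lmFit, then eBayes with trend, two-sided), and p-values were adjusted by Benjamini-Hochberg over all of them. The pseudocount of 1 understates differences of low genes. On simulated data with 2 lines a group, limma called 0.0% of genes changed by 2 on the log2 scale and 95.1% of those changed by 4. Smaller changes were not simulated, and every member difference was under 2 (largest 1.83). A count of 0 calls therefore does not show that the members were alike. Limma p-values and SEs rest on the spread between lines, with each gene's variance drawn toward a trend with level over all tested genes. They are therefore not the spread of that gene alone. Members, gene lists and the genes named were chosen with earlier results of these data known. The rule was to name all members, with every library's value where the absolute log2 difference was over 0.75, where groups did not overlap and it was over 0.5, where lines of a genotype were more than 1 apart, or where a member was the highest of its role, and up to 3 genes with the largest differences of each further list. Gpi1, Pfkm, Pdk3, Pkm and Eno2 were given in full beyond that rule, after their values were seen. Isozyme shares were FPKM over the family's sum. Positions came from GENCODE M21, matched by symbol, and promoters from RefSeq (GRCm38.p6). Figures were drawn with matplotlib 3.10.9. Other pseudocounts, filters, scalings, variance models and fits without each line were run as alternatives.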

Additional observations from a re-analysis of the deposited data

How the results depend on the processing

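No paired analysis was possible because only replicate number 1 occurs in both genotypes, and no label ties these lines to a common animal or day. With 2 lines a genotype, the spread between lines limits every comparison, and genes of low FPKM rest on few reads. The count of members called by limma was 0 under all 14 alternatives, with a smallest adjusted p-value between 0.374 and 0.943. With so few lines this count says nothing about stability. The count of members over 0.75 was 6 to 11 in the fits that each left out a line. The median of the chromosome 6 members (-0.59) became -0.34 without a filter, which adds Slc2a3, and -0.80 with a mean of at least 5 FPKM, which removes Eno2, and was -0.75 to -0.42 without a line. The median of the HIF members (0.17) was 0.11 under quantile normalization, for which the cause was not tested, and 0.17 to 0.41 without a line. The median of the glycolytic members (0.05) was -0.23 to 0.27 without a line, and that of all members -0.05 to 0.24.

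Of 459 values of single genes under alternatives, 429 kept their direction. A change of the filter, the variance model or the adjusted p-value threshold leaves the log2 difference of a gene as it was. Agreement under those settings was fixed in advance, so the count of 429 overstates stability. Directions reversed for Adm with a pseudocount of 0.1 (0.067) or 0.5 (0.024) and for Car9 under quantile normalization (-0.0050), all near 0, and the cause was not tested. Without 1 line, 18 genes changed direction in some fit. Their log2 differences ranged from -0.69 to 0.69 for Adm, -0.60 to 0.69 for Aldoc, -0.031 to 0.17 for Bnip3, -0.97 to 1.31 for Car9, -0.12 to 0.42 for Egln1, -0.59 to 0.022 for Hif1a, -0.15 to 0.10 for Hk1, -0.45 to 0.51 for Ldha, -0.21 to 1.04 for Ldhb. Those of the others ranged from -0.28 to 0.86 for Pdk1, -0.95 to 0.36 for Pfkfb4, -0.19 to 0.44 for Pgam1, -0.0095 to 0.47 for Pgk1, -0.17 to 0.29 for Pkm, -0.24 to 0.42 for Slc16a1, -0.45 to 1.83 for Slc16a3, -0.68 to 0.043 for Slc2a1, -0.79 to 1.17 for Vegfa.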
